A study of Mus musculus with 9 samples.

Results

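The genes of the mitochondrial respiratory chain were followed in endothelial cells (ECs) of mouse lungs with breast cancer metastases, with and without blockade of VEGF. The set held 45 nuclear genes, 27 of complex I, 4 of complex II, 7 of complex III, 6 of complex IV and cytochrome c. A probe set, the group of short probes that reads 1 transcript on the array, was taken where the annotation of the array names 1 of these genes alone. In this way 96 probe sets measured 43 of the 45 genes, out of 34945 probe sets and 18193 genes in all. Ndufs6 had only a probe set that also names Ndufs6b, and no probe set was listed for Cox7b, so neither is described further. For each gene the brightest of its probe sets, by the mean of 9 arrays, was used. A single probe set was present for 16 genes, and the others of the remaining 27 are given below.

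Each of 3 groups held 3 arrays, called biological replicates by the labels. The metastasis B20 group came from NSG mice injected into the tail vein at 6 to 8 weeks of age with cells of MDA-MB-231-LM2, a human breast cancer line selected for growth in the lung, and given B20.4.1.1, an antibody against VEGFA, at 10 mg/kg into the peritoneum 2 times a week. The metastasis IgG group carried the same cancer cells and received control IgG, and in both groups the lungs were taken on day 21. The healthy IgG group came from age-matched NSG mice without cancer cells that received control IgG. NSG mice lack T, B and NK cells, so these host cells are missing from all 3 groups, and the metastases arose from injected cells rather than from a primary tumor. The mice with metastases had been chosen for a comparable load by bioluminescence, and ECs were sorted from whole lungs, so ECs away from nodules are included.

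The respiratory chain passes electrons from NADH (complex I) and succinate (complex II) over ubiquinone to complex III, from there over cytochrome c to complex IV, and finally to oxygen. Complexes I, III and IV pump protons across the inner mitochondrial membrane, and the gradient drives ATP synthase. Most subunits are encoded in the nucleus, whereas mitochondrial DNA encodes a few core subunits of complexes I, III and IV. ECs are known to draw most of their ATP from glycolysis, while their respiratory chain has been linked to proliferation.

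Values are log2 intensities after robust multiarray averaging (RMA), which gives all arrays nearly the same distribution, so every level is relative to the other transcripts of its array. The lowest correlation between 2 arrays of a group was 0.991 and the lowest between groups was 0.977. The 10 endothelial markers, among them Pecam1, Cdh5 and Kdr, had a median change of 0.01 between metastasis IgG and healthy IgG, and 1 of them (Emcn, 0.43 ± 0.10) was called. Markers of other cells differed between these groups, with 9 of 10 macrophage and monocyte genes, 2 of 7 epithelial, 3 of 6 fibroblast, 2 of 6 pericyte and smooth muscle and all 5 measured genes of dividing cells called higher in metastasis IgG. Of all genes 5.55% were called higher and 3.46% lower. Not all members rose, as Pdgfra (fibroblast) was at -0.45 and Myh11 (smooth muscle) at -0.42, neither called. Of the erythroid markers 1 of 3 and of the neutrophil markers 1 of 2 were called higher, and 1 of 3 platelet markers was called lower. The summed signal of the macrophage markers was 13.69 to 14.16 in metastasis B20, 13.78 to 13.97 in metastasis IgG and 12.39 to 13.01 in healthy IgG arrays, and that of the dividing-cell markers 11.72 to 12.37, 12.41 to 13.06 and 10.14 to 10.76 in the same order. In RNA of sorted cells, fewer cells of a type and less RNA per cell cannot be told apart. Signal at the 3' end against the 5' end, a sign of RNA integrity, also differed between groups. The beta-actin difference was 0.526 to 0.62 log2 units in metastasis B20, 0.488 to 0.555 in metastasis IgG and 0.609 to 0.62 in healthy IgG arrays. All healthy IgG arrays thus lay above all metastasis IgG arrays. For Gapdh it was 0.0601 to 0.194, -0.0338 to 0.0995 and 0.0969 to 0.176 in the same order, with overlap. The part of these differences in the values below was not tested.

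The first question was whether the chain differed once metastases had grown, in metastasis IgG against healthy IgG. None of the 43 measured genes of the set passed the test here, whereas Cox6b1, a subunit outside the set, did and is given below. Of the 43 genes 24 lay above 0 and 19 below (49.8% and 50.2% of all genes), the median change was 0.04 log2 units, and the extremes were Ndufa4 at 0.44 ± 0.15 (SE, n = 3 arrays per group) and Ndufb10 at -0.25 ± 0.10. By limma with Benjamini-Hochberg adjustment over all 18193 genes, 0 of 43 had an adjusted p under 0.05, whereas 9.01% of all genes did, 5.55% higher and 3.46% lower. At an unadjusted p under 0.05 there were 6 of 43 (14.0%), against 23.3% of all genes. Of the 6, 5 were higher and 1 lower, against 12.5% and 10.8% of all genes. The arrays of both groups did not overlap in 15 of the 43 genes (34.9%), 12 higher and 3 lower in metastasis IgG, where 29.1% of all genes had no overlap, 15.4% higher and 13.6% lower. The intervals were narrow, and the 95% interval of the change lay within 0.5 log2 units of 0 for 42 of 43 genes, against 75.6% of all genes. The exception was Ndufa4, whose interval reached 0.78.

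**Figure D1:**
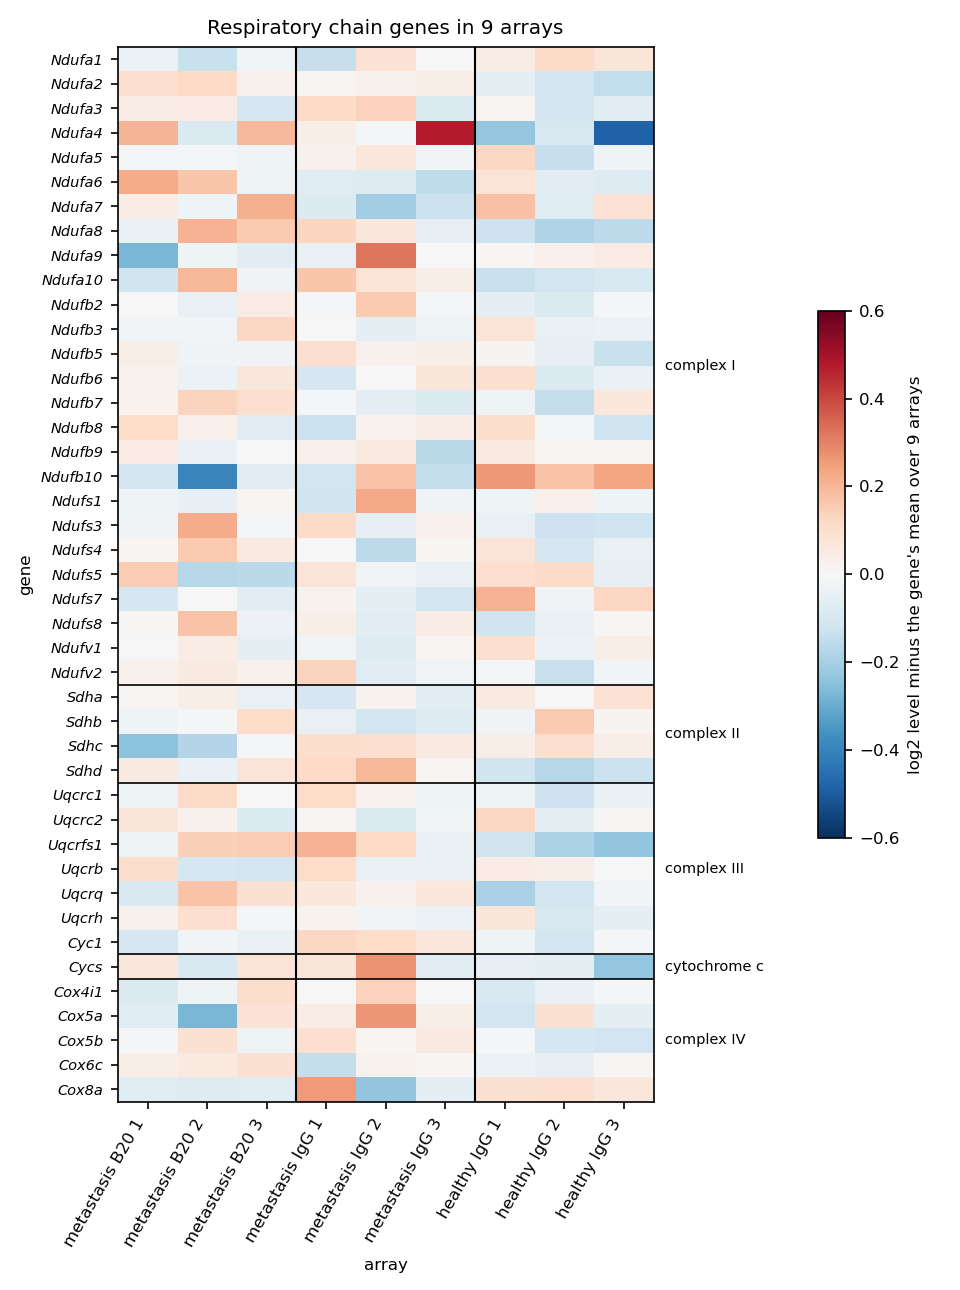
Rows are the 43 measured respiratory chain genes by complex and columns the 9 arrays, with color for the log2 level minus the gene's mean over all arrays. Most cells are pale, and the deepest colors are in Ndufa4 (10.84 in healthy IgG array 3 and 11.79 in metastasis IgG array 3) and Ndufb10 (10.13 in metastasis B20 array 2).

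Over all 9 arrays a gene of the chain moved little. Its range, highest minus lowest array, was 0.177 to 0.955 log2 units with a median of 0.27, against a median of 0.446 for all genes, and it stayed under 0.5 in 38 of 43 genes. The SD within a group was also small (median 0.0802, against 0.128 for all genes). However, the chain genes were brighter, with a median level of 11.48 against 8.89 for all genes. Ranges, SDs and intervals were not compared with genes of like level. The arrays' own level of the chain, the median over its genes of the deviation from each gene's mean, lay between -0.007 and 0.003 in metastasis B20, between -0.015 and 0.024 in metastasis IgG and between -0.056 and 0.007 in healthy IgG arrays, so the 3 groups overlapped.

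Complex I takes up electrons from NADH and is the largest of the complexes. Its 26 measured genes had a median of 0.02 in metastasis IgG against healthy IgG, with 13 above and 13 below 0. The measured core subunits lay on both sides of 0. Ndufv1, which binds NADH and the flavin, was at -0.06, its partner Ndufv2 at 0.07, the iron-sulfur subunit Ndufs1 at 0.04, and the core subunits near the ubiquinone site, Ndufs3, Ndufs7 and Ndufs8, at 0.13, -0.15 and 0.06, with adjusted p between 0.351 and 0.872. Further probe sets could show larger steps. Another of Ndufs8 had 10.53, 10.27 and 10.42 in metastasis IgG against 10.18, 9.99 and 10.07 in healthy IgG. Another of Ndufv2 had 9.98, 9.94 and 10.07 against 9.86, 9.75 and 9.67. Both had all metastasis arrays above all healthy ones without being called, whereas the further probe sets of Ndufv1 and Ndufs7 overlapped. The 5 complex I genes of smallest p were not among these core subunits.

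Ndufa4, long counted to complex I and since assigned to complex IV, had 11.36, 11.31 and 11.79 in metastasis IgG against 11.09, 11.23 and 10.84 in healthy IgG arrays. The third metastasis array and the third healthy array lie apart from the rest of their groups in opposite directions, and the groups did not overlap. The change of 0.44 ± 0.15 (1.36-fold) did not pass (adjusted p = 0.119). Ndufa10, an accessory subunit of the membrane arm, had 11.48, 11.39 and 11.35 against 11.18, 11.20 and 11.21, a difference of 0.21 ± 0.08 (adjusted p = 0.134). Ndufa8, which faces the intermembrane space, had 12.31, 12.25 and 12.14 in metastasis IgG against 12.058, 12.002 and 12.028 in healthy IgG, a difference of 0.20 ± 0.08 (adjusted p = 0.170). In both genes all 3 metastasis arrays were above all healthy ones. Ndufa8 passed with a variance that follows the level and is robust to outliers (limma's trend and robust settings, adjusted p = 0.0455).

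Other accessory subunits lay below 0. Ndufb10, a subunit of the membrane arm, had 10.41, 10.70 and 10.39 in metastasis IgG against 10.79, 10.70 and 10.77 in healthy IgG, so the second metastasis array touched the healthy ones. The change was -0.25 ± 0.10 with adjusted p = 0.176. Ndufa7, an accessory subunit of the matrix arm, had 9.88, 9.76 and 9.84 against 10.14, 9.89 and 10.05, a change of -0.20 ± 0.09 (adjusted p = 0.224), and 3 of its other 4 probe sets were at -0.18 to -0.22 while the fourth gave -0.09. The other complex I genes ranged from -0.15 (Ndufs7) to 0.13 (Ndufa2).

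**Figure D2:**
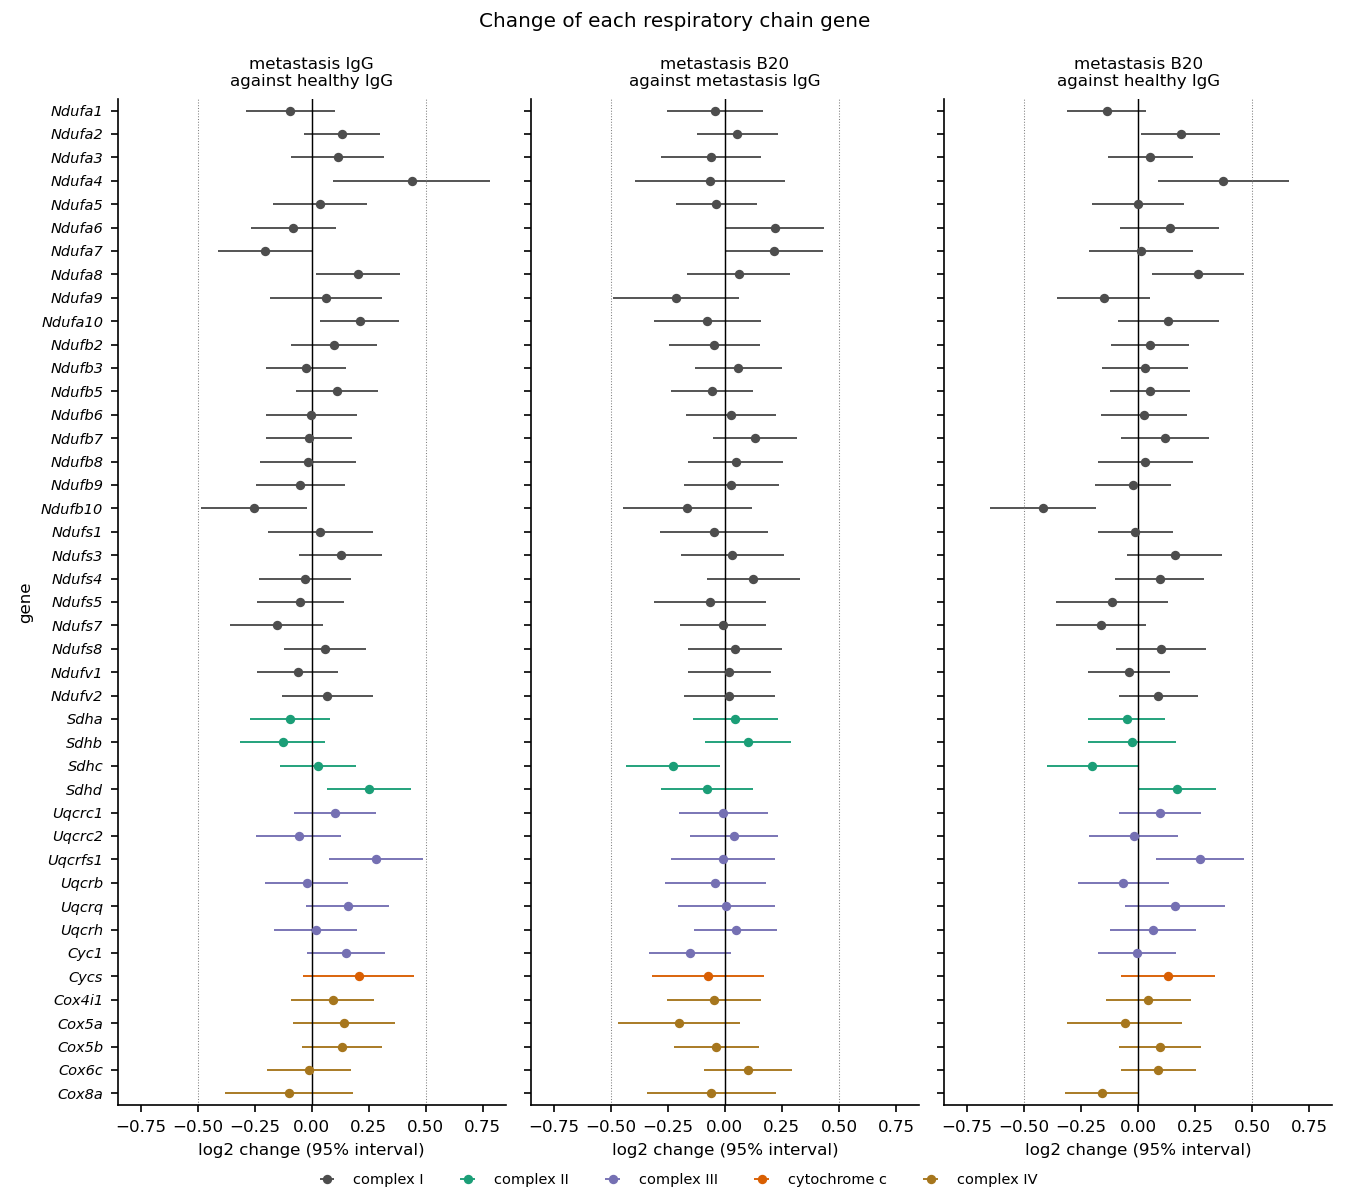
Points are log2 changes of the 43 genes in 3 comparisons (x axis), with bars for the 95% interval from limma, 3 arrays per group, colored by complex. Dotted lines mark 0.5 log2 units in either direction. In metastasis B20 against metastasis IgG all intervals stay inside them, and Ndufb10 at -0.42 in metastasis B20 against healthy IgG is the only gene that passed.

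Complex II, succinate dehydrogenase, joins the chain to the TCA cycle. Its 4 genes moved in different directions, with a median of -0.03. Sdhd, a membrane anchor that helps form the ubiquinone site, had 11.15, 11.24 and 11.05 in metastasis IgG against 10.91, 10.86 and 10.91 in healthy IgG. All metastasis arrays were above all healthy ones by a small step, 0.25 ± 0.08 (1.19-fold, adjusted p = 0.100), and its second probe set gave 0.11. Sdhd too passed with the trend and robust settings (adjusted p = 0.0462). Sdhb, the iron-sulfur subunit, had 11.54, 11.47 and 11.50 against 11.56, 11.74 and 11.60, a change of -0.13 ± 0.08 (adjusted p = 0.398). Sdha, the flavoprotein that oxidizes succinate, had 11.77, 11.89 and 11.81 against 11.93, 11.87 and 11.96, and its groups overlapped (-0.09 ± 0.08, adjusted p = 0.519). Sdhc, the other anchor, was at 0.03. The anchor Sdhd was thus above 0 while both subunits of the catalytic head were below it, none of them past the threshold.

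Complex III hands electrons from ubiquinol to cytochrome c. Its 7 genes had a median of 0.10, with 5 above 0 (49.8% of all genes). In 4 the metastasis IgG arrays lay above all healthy ones, as they did in 15.4% of all genes. Uqcrfs1, the Rieske iron-sulfur protein, had 10.51, 10.41 and 10.26 in metastasis IgG against 10.17, 10.10 and 10.06 in healthy IgG. The difference of 0.28 ± 0.09 (1.21-fold) did not pass at adjusted p = 0.100. Cyc1, the cytochrome c1 subunit, had 11.24, 11.22 and 11.18 against 11.081, 11.001 and 11.101 (0.15 ± 0.07, adjusted p = 0.275). Uqcrq, a small subunit, had 12.06, 12.02 and 12.06 against 11.80, 11.89 and 11.98 (0.16 ± 0.08, adjusted p = 0.281). The core subunits Uqcrc1 and Uqcrc2, at 0.10 and -0.06, the ubiquinone-binding Uqcrb, at -0.02, and the hinge protein Uqcrh, at 0.02, lay close to 0.

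Cycs, cytochrome c itself, carries electrons in the intermembrane space and starts the apoptosome when it is released. Its level was 11.45, 11.65 and 11.32 in metastasis IgG against 11.33, 11.32 and 11.14 in healthy IgG, with overlap between the groups (0.21 ± 0.11, adjusted p = 0.291). Complex IV, cytochrome c oxidase, passes the electrons to oxygen, and the 5 measured nuclear subunits had a median of 0.09. Cox5a had 11.71, 11.94 and 11.71 against 11.56, 11.76 and 11.61 (0.14 ± 0.10, adjusted p = 0.438) and Cox5b 13.07, 12.98 and 13.02 against 12.96, 12.86 and 12.85 (0.13 ± 0.08, adjusted p = 0.355). Cox4i1, the regulatory subunit, had 12.43, 12.58 and 12.44 against 12.35, 12.39 and 12.43 (0.09 ± 0.08, adjusted p = 0.548). Of these 3 genes, picked for the smallest p in the complex, Cox5b and Cox4i1 were higher without overlap (15.4% of all genes), and Cox5a overlapped. Cox6c and Cox8a were at -0.01 and -0.10.

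The comparison of metastasis B20 with metastasis IgG asked whether VEGF blockade moved the chain in the metastatic lung. Here too 0 of 43 genes had an adjusted p under 0.05 by limma, as did 0% of all genes. At an unadjusted p under 0.05 there were 3 of 43 (6.98%), against 8.04% of all genes, 2 higher and 1 lower (3.83% and 4.2% of all genes). The median was -0.01, with 20 genes above and 23 below 0 (48.2% and 51.8% of all genes), and the medians by complex were 0.02 for complex I, -0.02 for complex II, -0.01 for complex III and -0.05 for complex IV. The 95% interval stayed within 0.5 log2 units of 0 for all 43 genes, against 84.9% of all genes, and its farthest bounds were -0.49 (Ndufa9) and 0.43 (Ndufa6). The arrays did not overlap in 8 genes (18.6%, against 13.1% of all genes), 6 of them higher and 2 lower in metastasis B20 (6.2% and 6.91% of all genes). Markers of other cells differed between the same arrays, none of them called. The 5 dividing-cell markers had a median of -0.74, all 5 at an unadjusted p under 0.05, the 3 platelet markers a median of 0.40, all 3 at an unadjusted p under 0.05 and without overlap, and the 2 neutrophil markers a median of 0.34, 1 of them at an unadjusted p under 0.05. Their part in the chain values was not tested.

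The 3 genes under an unadjusted p of 0.05 were Sdhc, Ndufa6 and Ndufa7. Sdhc had 10.88, 10.95 and 11.12 in metastasis B20 against 11.23, 11.23 and 11.18 in metastasis IgG, lower in every treated array (-0.23 ± 0.09, adjusted p = 0.591). Its second probe set read the opposite, with 11.18, 11.18 and 11.02 in metastasis B20 against 11.01, 10.97 and 10.98 in metastasis IgG (0.14 ± 0.09, adjusted p = 0.784 over all probe sets), so no direction can be given for Sdhc. Ndufa6, a complex I subunit of the matrix arm, had 10.62, 10.57 and 10.37 against 10.33, 10.32 and 10.25 (0.22 ± 0.09, adjusted p = 0.616). Ndufa7 had 10.01, 9.94 and 10.18 against 9.88, 9.76 and 9.84 (0.22 ± 0.09, adjusted p = 0.616). By this probe set of Ndufa7 the metastasis IgG arrays were thus below both other groups, whose arrays overlapped. Its further probe sets all overlapped between metastasis B20 and metastasis IgG, such as one with 8.71, 9.06 and 8.88 against 8.81, 8.80 and 8.83. The same metastasis IgG arrays enter the comparisons with metastasis B20 and with healthy IgG, which are not independent.

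**Figure D3:**
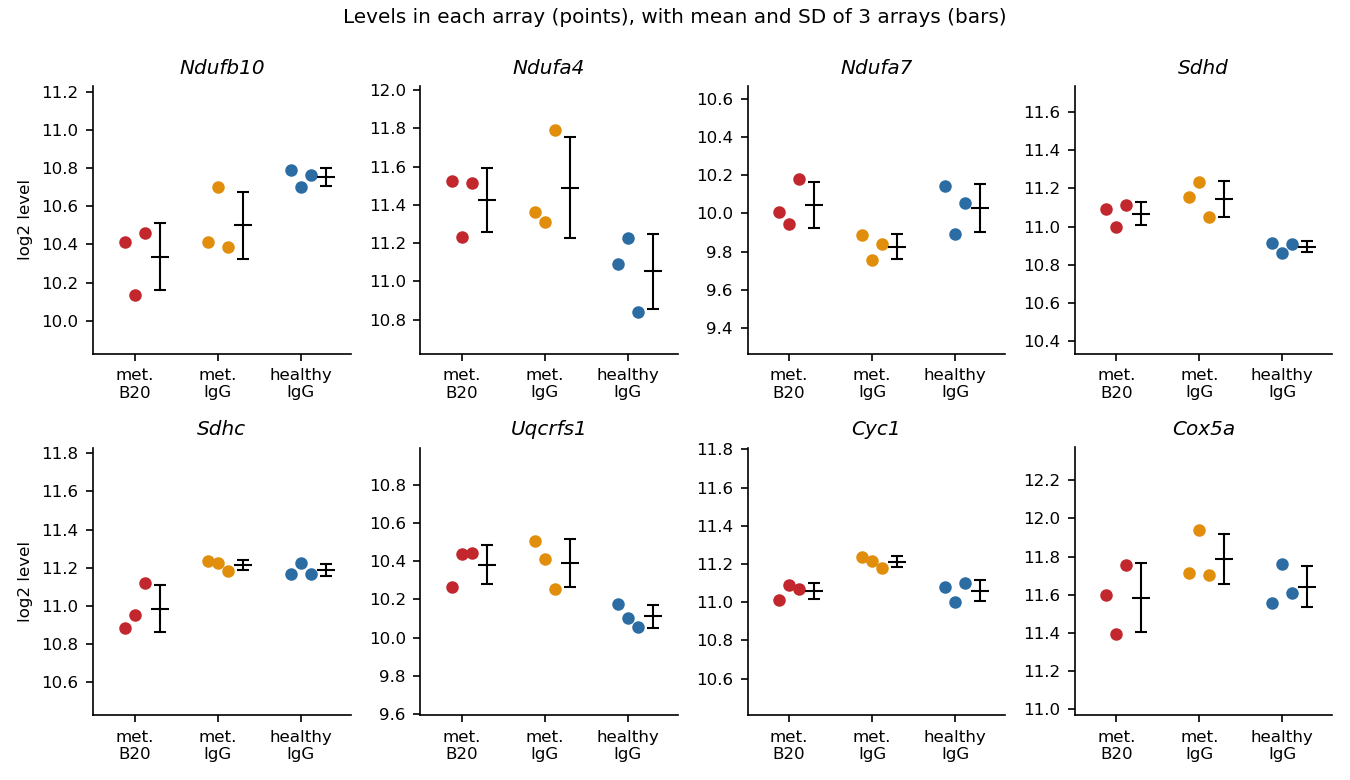
Points are log2 levels in the 9 arrays for 8 genes, in the order metastasis B20, metastasis IgG and healthy IgG, and the bars beside them the mean and SD of 3 arrays. Every panel spans the same height. Sdhd and Uqcrfs1 lie lower in healthy IgG than in both metastasis groups, Ndufb10 lies highest in healthy IgG, and Cyc1 is highest in metastasis IgG.

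The remaining genes of smallest p in each complex did not pass under B20 either. Ndufa9, which sits where the arms of complex I meet, had 11.75, 11.99 and 11.96 in metastasis B20 against 11.97, 12.34 and 12.02 in metastasis IgG (-0.21 ± 0.12, adjusted p = 0.721). Sdhb had 11.55, 11.57 and 11.69 against 11.54, 11.47 and 11.50 (0.10 ± 0.08, adjusted p = 0.807). Cyc1 had 11.01, 11.09 and 11.07 against 11.24, 11.22 and 11.18, lower in all 3 treated arrays (-0.15 ± 0.08, adjusted p = 0.679). Uqcrh had 11.69, 11.76 and 11.65 against 11.69, 11.65 and 11.63 (0.05 ± 0.08, adjusted p = 0.923), and Cycs had 11.44, 11.29 and 11.46 against 11.45, 11.65 and 11.32 (-0.07 ± 0.11, adjusted p = 0.915). Another bright Cycs probe set had 10.93, 10.64 and 11.17 in metastasis B20 against 11.25, 11.30 and 11.25 in metastasis IgG, lower in every treated array. The remaining Cycs probe sets had a lower mean in metastasis B20 with overlap, so the probe set used shows the smallest step. In complex IV, Cox5a had 11.60, 11.40 and 11.76 in metastasis B20 against 11.71, 11.94 and 11.71 in metastasis IgG (-0.20 ± 0.12, adjusted p = 0.726). Cox6c, a small nuclear subunit, had 12.77, 12.79 and 12.82 against 12.59, 12.75 and 12.74 (0.10 ± 0.08, adjusted p = 0.816). By the probe set used, Cyc1, Sdhb and Cox6c of these 7 genes had no overlap, against 13.1% of all genes, and none passed. A choice by smallest p favors genes without overlap.

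Between metastasis B20 and healthy IgG, 1 of the 43 genes was called, and it was lower, against 6.44% of all genes called, 4.15% higher and 2.29% lower. This gene was Ndufb10, with 10.41, 10.13 and 10.46 in metastasis B20 against 10.79, 10.70 and 10.77 in healthy IgG. All treated arrays were below all healthy ones, and the second lies farthest down. The change of -0.42 ± 0.10 (0.749-fold) passed at adjusted p = 0.0487, just inside the threshold. It no longer passed without any 1 of the 6 arrays, with adjusted p between 0.0612 and 0.134, nor when every probe set was tested by itself (adjusted p = 0.0574), when all 9 arrays shared a fit (adjusted p = 0.0507) or with the replicate number as a block (adjusted p = 0.0622). Between metastasis B20 and metastasis IgG the difference in Ndufb10 was -0.16 ± 0.12 (adjusted p = 0.794). The 2 comparisons with healthy IgG share the healthy arrays.

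The other 42 genes were not called in metastasis B20 against healthy IgG, with 7 of 43 (16.3%) at an unadjusted p under 0.05 against 21.2% of all genes. These were 5 higher and 2 lower genes (11.3% and 9.89% of all genes). The median over the 43 was 0.05, with 26 above and 17 below 0 (47.8% and 52.2% of all genes), and 14 (32.6%) had no overlap, 9 higher and 5 lower, against 26.9% of all genes (13.8% higher and 13.1% lower). The 95% interval lay within 0.5 log2 units of 0 for 41 genes (95.3%, against 77.7% of all genes), all but Ndufa4 and Ndufb10. Uqcrfs1 had 10.26, 10.44 and 10.45 in metastasis B20 against 10.17, 10.10 and 10.06 in healthy IgG (0.27 ± 0.08, adjusted p = 0.107), and Ndufa8 had 12.14, 12.39 and 12.34 against 12.058, 12.002 and 12.028 (0.26 ± 0.09, adjusted p = 0.130). Sdhd had 11.090, 10.998 and 11.111 against 10.91, 10.86 and 10.91 (0.17 ± 0.07, adjusted p = 0.236). Ndufa4 had 11.53, 11.23 and 11.51 against 11.09, 11.23 and 10.84 (0.37 ± 0.13, adjusted p = 0.130), and its lowest treated array all but met the highest healthy one. All 4 had also lain above 0 in metastasis IgG against healthy IgG, a comparison that shares the healthy arrays.

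Where a gene had several probe sets, they did not always run the same way. The 27 such genes had 53 further probe sets, and 15 of these had the opposite sign in metastasis IgG against healthy IgG, 22 in metastasis B20 against metastasis IgG and 21 in metastasis B20 against healthy IgG. Of those, 1, 2 and 7 differed from the probe set used by at least 0.3 log2 units. In Uqcrq a dim probe set had 7.64, 7.33 and 8.11 in metastasis IgG against 8.05, 7.74 and 8.30 in healthy IgG (-0.34 ± 0.21), where the used one gave 0.16. In Ndufs8, 1 of 5 others had 9.07, 8.76 and 8.96 in metastasis B20 against 9.28, 9.34 and 9.46 in metastasis IgG, below it in all arrays (-0.43 ± 0.11, adjusted p = 0.488 over all probe sets), where the used one gave 0.04. Against healthy IgG, metastasis B20 split in this way in Ndufs8 (-0.23 and 0.10), Sdhc (0.25 and -0.20), Uqcrq (-0.32 and 0.16), Ndufa10 (-0.18 and 0.13), Ndufs4, an accessory subunit needed for a stable complex I (-0.38 and 0.09), and Cycs (-0.21 and -0.30 in a pair of others, and 0.13), the used probe set last in each pair. In Ndufs4 the divergent one had 7.85, 7.99 and 8.19 in metastasis B20 against 8.28, 8.56 and 8.33 in healthy IgG, in Ndufa10 it had 7.93, 8.13 and 8.00 against 8.32, 8.37 and 7.92, and in Cycs the brighter one had 10.93, 10.64 and 11.17 against 11.13, 11.18 and 11.07. Only in Ndufs4, of these 3, were all treated arrays below all healthy ones. None of the 96 probe sets was called in any of the 3 comparisons, against 7.41%, 0% and 5.41% of all 34945 probe sets of 1 gene.

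**Figure D4:**
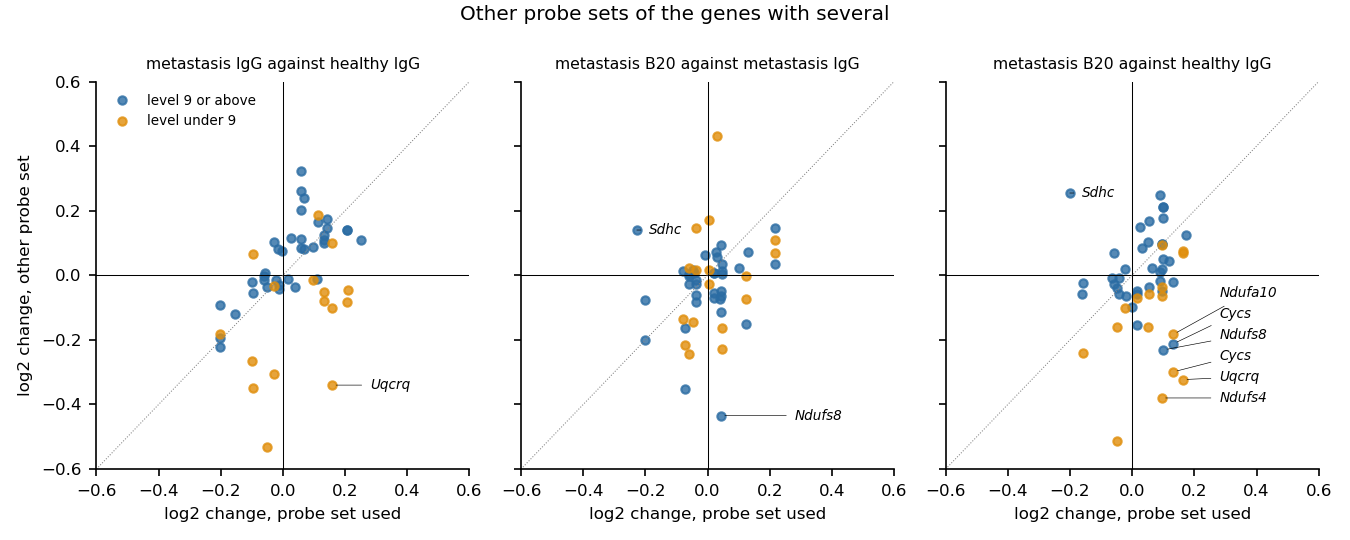
Each point is a further probe set of a gene with several, with the log2 change of the probe set used on the x axis and its own on the y axis, in 3 comparisons. Orange marks probe sets whose mean level was under 9 log2 units in both groups compared. Named genes have the opposite sign and lie at least 0.3 log2 units from the used probe set, such as Sdhc at -0.23 and 0.14 in metastasis B20 against metastasis IgG.

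NRF1, GABP and YY1 are transcription factors known to drive many nuclear respiratory chain genes, so their core motifs were looked for in promoters of RefSeq on GRCm38.p6, taken from 250 bases before to 50 bases after the start. Of the 43 genes 33 matched by symbol, and Ndufa2, Ndufb9, Ndufs1, Sdhc, Uqcrc2, Uqcrb, Uqcrq, Cyc1, Cox4i1 and Cox6c did not. On either strand, GCATGCGC (NRF1) stood in 5 of 33 (15.15%) against 2.805% of all 27025 promoters, CCGGAAG (GABP) in 8 (24.24%) against 9.121%, and AAGATGGC (YY1) in 5 (15.15%) against 2.879%. The NRF1 motif can overlap itself on the opposite strand, as 2 matches in Uqcrc1 did, and the GABP and YY1 motifs could share their AAG, but no promoter of the 33 held both of these. Each promoter was counted once per motif. At least 1 was present in 17 of 33 (51.52%) against 13.75%. A match of letters is not a bound site. Ndufb10 is shown as the gene that was called, Sdhb because it holds 2 of the motifs, and Ndufa9 for YY1 just behind the start, each 5′ to 3′ on the strand of the gene with matches in capitals. Ndufb10 lies at chr17:24724374-24724673 (minus strand), Sdhb at chr4:140961021-140961320 (plus strand) and Ndufa9 at chr6:126849095-126849394 (minus strand).
Ndufb10: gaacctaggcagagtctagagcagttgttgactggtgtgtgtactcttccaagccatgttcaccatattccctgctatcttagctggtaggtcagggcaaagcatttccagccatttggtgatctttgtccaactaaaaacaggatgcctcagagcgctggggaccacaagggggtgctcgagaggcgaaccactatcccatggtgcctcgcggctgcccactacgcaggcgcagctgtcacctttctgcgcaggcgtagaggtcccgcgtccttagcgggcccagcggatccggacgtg
Sdhb: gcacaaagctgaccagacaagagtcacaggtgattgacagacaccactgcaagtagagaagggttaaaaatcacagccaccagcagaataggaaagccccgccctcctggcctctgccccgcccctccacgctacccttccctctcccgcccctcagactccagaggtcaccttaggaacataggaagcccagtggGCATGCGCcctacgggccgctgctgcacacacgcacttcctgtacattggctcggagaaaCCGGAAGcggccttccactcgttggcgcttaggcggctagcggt
Ndufa9: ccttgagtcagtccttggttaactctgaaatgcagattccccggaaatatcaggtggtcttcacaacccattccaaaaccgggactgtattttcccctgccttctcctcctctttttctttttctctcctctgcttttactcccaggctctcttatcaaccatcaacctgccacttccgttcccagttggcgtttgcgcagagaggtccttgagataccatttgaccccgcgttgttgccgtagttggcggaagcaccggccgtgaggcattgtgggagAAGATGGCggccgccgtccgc
Genes with a motif were spread over those above and below 0, as with Sdhb at -0.13, Ndufa9 at 0.06 and Ndufa8 (NRF1) at 0.20 in metastasis IgG against healthy IgG. None of the factors themselves was called. In metastasis IgG against healthy IgG, Nrf1 was at -0.11 ± 0.08, Gabpa, the DNA-binding subunit of GABP, at -0.003 ± 0.08 and Yy1 at 0.05 ± 0.07 (adjusted p = 0.469, 0.990 and 0.747). Nrf1 in metastasis B20 against metastasis IgG was at 0.12 ± 0.08, Gabpa at -0.33 ± 0.11 and Yy1 at -0.07 ± 0.08 (adjusted p = 0.770, 0.494 and 0.885). Nrf1 in metastasis B20 against healthy IgG was at 0.01 ± 0.08, Gabpa at -0.33 ± 0.10 and Yy1 at -0.02 ± 0.07 (adjusted p = 0.972, 0.0907 and 0.932).

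The rest of the respiratory chain and its neighbors were read in the same way. Of 16 further measured subunits Cox6b1, a complex IV subunit at the dimer interface, was called higher (5.55% of all genes), with 11.64, 11.74 and 11.59 in metastasis IgG against 11.24, 11.15 and 11.15 in healthy IgG (0.48 ± 0.08, adjusted p = 0.00848). It was called against healthy IgG under B20 as well, with 11.63, 11.68 and 11.84 in metastasis B20 (0.53 ± 0.08, adjusted p = 0.00884). The other 15 did not pass, and the median of the 16 was 0.04 in metastasis IgG against healthy IgG. ND5, the only subunit encoded in mitochondrial DNA with a probe set of its own, had 11.39, 11.36 and 11.17 in metastasis IgG against 11.41, 11.24 and 11.19 in healthy IgG (0.03 ± 0.10, adjusted p = 0.908). By limma 0 of 15 ATP synthase genes (median 0.03, 2 at an unadjusted p under 0.05) and 0 of 16 TCA cycle genes (median 0.06, 4 at an unadjusted p under 0.05) were called in this comparison. Of all genes 9.01% were called there, and 23.3% had an unadjusted p under 0.05. None of either list was called in metastasis B20 against metastasis IgG (0% of all genes), but 13 of the 16 TCA cycle genes lay below 0 (51.8% of all genes), with a median of -0.07, and 4 had no overlap, all lower (6.91% of all genes). Cs, citrate synthase, was at -0.28 ± 0.09 (adjusted p = 0.463) and Idh3a, a subunit of isocitrate dehydrogenase, at -0.24 ± 0.09 (adjusted p = 0.531). The ATP synthase genes had a median of 0.02 there, with 6 of 15 below 0.

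In a list of mitochondrial genes tied to hypoxia, 2 of 6 measured genes were called in metastasis IgG against healthy IgG, both higher, where 9.01% of all genes were called and 5.55% called higher. Bnip3, a mitochondrial receptor for mitophagy, had 12.45, 12.18 and 12.37 in metastasis IgG against 11.34, 11.49 and 11.37 in healthy IgG, a rise of 0.93 ± 0.09 (adjusted p = 0.000900). Pdk1, the kinase that keeps pyruvate from the TCA cycle, had 9.92, 9.71 and 9.52 against 9.15, 9.31 and 9.28 and rose by 0.47 ± 0.11 (adjusted p = 0.0382). The hypoxia-inducible variants of chain subunits, Cox4i2 and Ndufa4l2, were at 0.08 ± 0.17 and -0.03 ± 0.12 and did not pass, nor did Higd1a and Lonp1 (-0.12 ± 0.08 and 0.03 ± 0.09). Against healthy IgG, Bnip3 and Pdk1 were also called in metastasis B20 (4.15% of all genes were called higher), at 0.76 ± 0.11 and 0.65 ± 0.10 (adjusted p = 0.00637 and 0.00877), and between metastasis B20 and metastasis IgG they differed by -0.18 ± 0.12 and 0.18 ± 0.13 without passing. The change of Bnip3 was larger in size than that of each of the 43 chain genes in the same comparison.

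**Figure D5:**
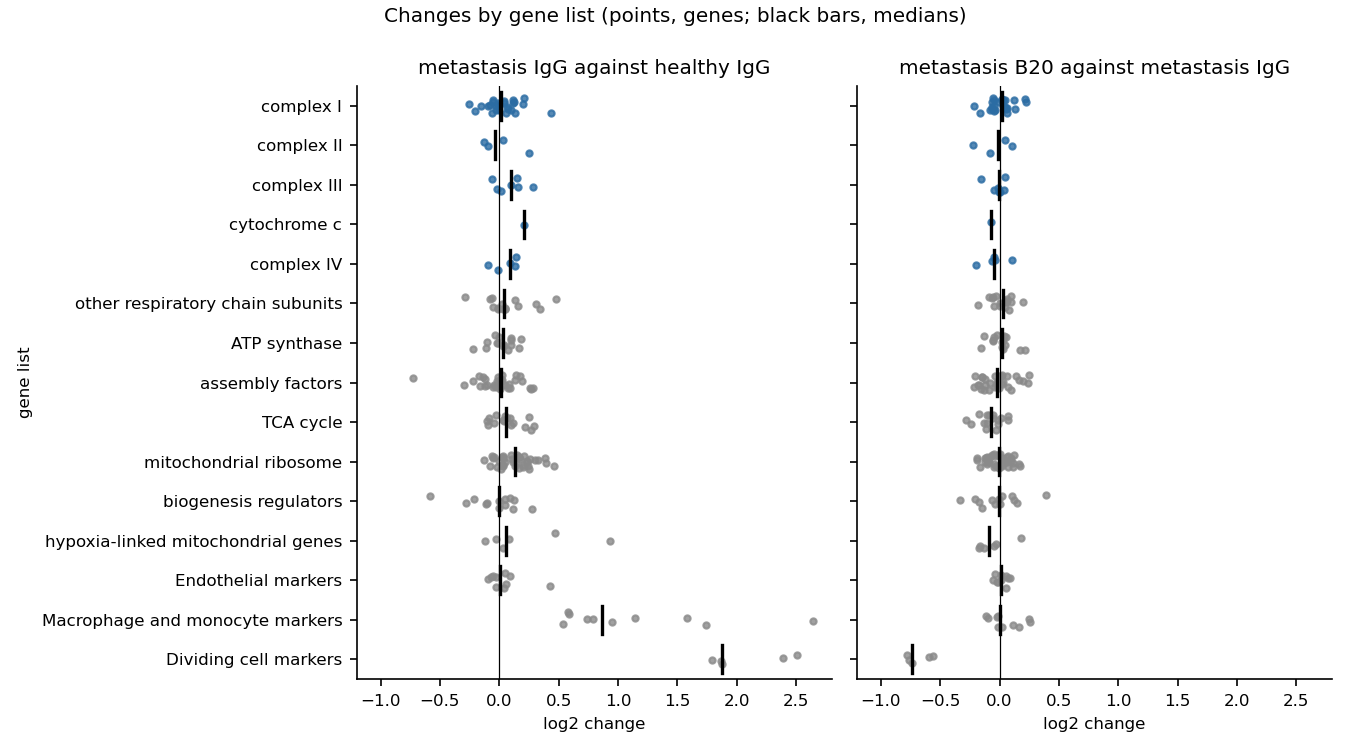
Points are genes and black bars medians of the log2 change (x axis), for the complexes (blue) and other lists (grey), in metastasis IgG against healthy IgG and in metastasis B20 against metastasis IgG. The complexes gather around 0 in both, while macrophage markers (median 0.87) and dividing-cell markers (1.87) lie to the right in the first panel, and dividing-cell markers at -0.74 in the second.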

How the data were processed

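RNA of sorted lung ECs from 9 mice, 3 per group, was hybridized to Affymetrix Mouse Genome 430 2.0 arrays after amplification from 1 ng. ECs were sorted as CD31-positive and free of GFP, CD326, CD45, CD11b and both PDGF receptors (CD140a and CD140b). The authors deposited log2 values that they had normalized by RMA in Chipster 3.8.0. RMA forces 1 distribution on all arrays, so a shift shared by most transcripts would not be seen. No filter on low values was applied.

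Of 45101 probe sets, 9211 had no gene name in the platform annotation and 932 named several genes. The other 34945 stood for 18193 genes, each represented by the probe set of highest mean. Pairs of groups were compared by the two-sided moderated test of limma 3.58.1, run under R 4.3.3, p-values were adjusted by Benjamini-Hochberg over 18193 genes, and a gene was called at an adjusted p under 0.05. Array number limits the precision. The SE and p-values of limma rest on a gene's spread within both groups of 3 mice, drawn toward the spread of all 18193 genes. This raises the SE of genes that vary little. The fit was run on simulated data only to check that it returned steps of known size. That check does not show how small a step could be called here. Values in every array are given for called genes, for the genes of smallest p in each complex, for Cycs and for genes whose probe sets diverge by 0.3 log2 units or more with opposite signs. Sdha is among the genes of smallest p because complex II has only 4 genes. Genes of the other lists were named where they were called or bear on the chain. The genes, lists and rules were chosen with earlier results of these data known. Alternatives were other probe set choices, a fit over all arrays, other variance settings, a stricter and a looser threshold, a block for replicate number and leaving out each array.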

Additional observations from a re-analysis of the deposited data

How the results depend on the processing

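In metastasis IgG against healthy IgG the count of 0 called among the 43 genes became 2 with limma's trend and robust settings (Ndufa8 and Sdhd). It became 7 at an adjusted p under 0.25, where 26.1% of all genes passed, and it stayed the same in 11 of 13 alternatives. The median of 0.04 was 0.0128 with every probe set and 0.0211 to 0.0513 without single arrays. In metastasis B20 against metastasis IgG the count was 0 in all 13 alternatives, and the median was -0.0373 to 0.0105 without single arrays. In metastasis B20 against healthy IgG the single call, Ndufb10, became 0 with every probe set tested, with all 9 arrays in a fit, with the replicate number as a block and at the study's thresholds, it became 3 with the trend and robust settings and 8 at an adjusted p under 0.25, and it was 0 to 0 without single arrays. Its change was then -0.479 to -0.316. The median of 0.05 was 0.00487 with every probe set, -0.00147 with all probe sets of a gene averaged and 0.0255 to 0.0721 without single arrays.

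Among 33 values of named genes with 561 alternatives, 13 reversed. With probe sets averaged these were Uqcrq in metastasis IgG against healthy IgG (-0.0456), Ndufs8 in metastasis B20 against metastasis IgG (-0.0876), and in metastasis B20 against healthy IgG Ndufa10 (-0.0250), Ndufs4 (-0.0921), Sdhc (0.0270), Uqcrq (-0.00418) and Cycs (-0.0999). Without probe sets that the array's design marks as open to cross-hybridization, Sdhc was at 0.140 in metastasis B20 against metastasis IgG and at 0.255 in metastasis B20 against healthy IgG, and Uqcrq at -0.340 in metastasis IgG and -0.323 in metastasis B20 against healthy IgG. In metastasis B20 against metastasis IgG, Cycs was at 0.0149 without metastasis IgG array 2, in a range of -0.151 to 0.0149 without single arrays, and Ndufs8 at -0.0192 without metastasis B20 array 2, in a range of -0.0192 to 0.0836. Another probe set was used in these cases, or fewer arrays.

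Same-numbered arrays of different groups did not deviate together (correlations of -0.0757 to 0.0138, against -0.145 to 0.177 for differently numbered ones). With 3 arrays per group this cannot show whether the mice were paired, and the main fit used no pairing. With the replicate number as a block, 1176, 0 and 841 of all genes were called in the order of the comparisons above, against 1640, 0 and 1172 without it. A filter on means under 5 removed no gene, and one at 8 was chosen after seeing the data. With 3 mice per group the median SE of a change was 0.0811 to 0.0907 log2 units, and changes of that size could not be shown. Changes several times larger also went uncalled by limma in metastasis IgG against healthy IgG. Examples were Sdhd at 0.25 (adjusted p = 0.100) and Ndufa4 at 0.44 (adjusted p = 0.119).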

Other observations

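Genes that build and regulate mitochondria held a few calls around the chain. Of 38 mitochondrial ribosome proteins 32 lay above 0 in metastasis IgG against healthy IgG (49.8% of all genes), with a median of 0.13, and Mrps22, Mrpl15 and Mrpl17 were called higher (0.38, 0.39 and 0.46), against 5.55% of all genes called higher. In metastasis B20 against healthy IgG the median was 0.10, and Mrps30 and Mrpl15 were called higher (0.45 and 0.38, against 4.15% of all genes), while in metastasis B20 against metastasis IgG it was -0.01 with none called. Tfb2m, a transcription factor of mitochondrial DNA, had 9.19, 9.36 and 9.53 in metastasis B20, 9.22, 9.35 and 9.18 in metastasis IgG and 9.75, 9.97 and 9.79 in healthy IgG arrays. It fell in both metastasis groups against healthy IgG, by 0.48 ± 0.11 with B20 (adjusted p = 0.0390) and by 0.58 ± 0.09 with IgG (adjusted p = 0.00679), the only call among 13 regulators in each comparison (2.29% of all genes were called lower with B20 and 3.46% with IgG), where Tfam and Ppargc1a were at 0.12 and -0.22 in metastasis IgG against healthy IgG and did not pass.

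Of 32 assembly factors, Tmem126b, which helps build the membrane arm of complex I, was called in metastasis B20 against healthy IgG, where 6.44% of all genes were called and 2.29% called lower. It had 8.49, 8.04 and 8.71 in metastasis B20, 8.37, 8.95 and 8.39 in metastasis IgG and 9.41, 8.94 and 9.55 in healthy IgG arrays. The decrease was 0.89 ± 0.20 with B20 (adjusted p = 0.0390), and the value with IgG was -0.73 ± 0.20 (adjusted p = 0.0598). Macrophage and dividing-cell markers differed between the same arrays, and their part in these values was not tested.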
